A study of Mus musculus with 8 samples.

Results

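Fast-twitch skeletal muscle contracts with its own set of protein isoforms, and 10 genes that encode such proteins were followed across 8 mouse hearts. They are Myh4, Myh1 and Myh2 (myosin heavy chains), Mylpf (a regulatory myosin light chain), Actn3 (an actinin of the Z-disc), Tnnt3, Tnni2 and Tnnc2 (the 3 troponin subunits), Atp2a1 (a calcium pump) and Pvalb (the calcium buffer parvalbumin). The 10 genes were taken by name from the 22180 genes that had at least 1 probe set with a single gene symbol, and each was read by 1 probe set. They were chosen by their values in these same hearts, since earlier results of the arrays showed them high in some hearts and low in others. The order and spread of their values over the hearts are therefore a description and carry no test.

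The hearts, labelled as myocardium, came from 4 female and 4 male mice, all heterozygous for Pcyt2 (Pcyt2+/-) and 8 months old. Pcyt2 encodes an enzyme of phosphatidylethanolamine synthesis. The hearts were frozen after collection at 3 to 4 hours after lights on, and 100 ng of RNA from each was labelled for an Affymetrix-type expression array. Sex was the comparison that the labels hold. All 8 hearts carried the heterozygous allele, wild-type hearts were not analysed here, and the labels used here name neither a strain nor how the allele was made.

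Values are log2 values (the base was taken as 2) relative to the median of each probe set over the 8 arrays, which was 0 in all 34351 probe sets. They show how a gene differed between hearts, not its level, so genes cannot be ranked by abundance and the presence of cardiac marker genes could not be checked. A higher value means more RNA: Xist lay between 1.99 and 2.18 in females, against -3.02 to -1.99 in males. The medians of the arrays lay between -0.0021 and 0.0023, and the SD over probe sets lay between 0.092 and 0.129. In whole-heart RNA, more cells of a type and more RNA per cell cannot be told apart.

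In a sarcomere, myosin heavy chains pull on actin filaments, and the troponin complex opens those filaments when calcium binds to its calcium-binding subunit. Working cardiac muscle uses the heavy chains Myh6 and Myh7, and a light chain, an actinin, troponins and a calcium pump other than the fast isoforms. Not all of these are confined to the heart, as slow skeletal fibres also use Myh7. Among the fast heavy chains, Myh4 encodes type 2B, Myh1 type 2X and Myh2 type 2A, the names of the fast fibre types. The genes of these heavy chains lie side by side on chromosome 11 in the order Myh3, Myh2, Myh1, Myh4, Myh8 and Myh13, with 0 other protein-coding genes between them in the RefSeq table of GRCm38.p6.

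The stretches before the starts of the heavy chain genes are shown because these neighbouring genes behaved differently in the hearts. They are the 250 bases before the RefSeq start in GRCm38.p6, all on the plus strand: chr11:67237562-67237811 for Myh4, chr11:67199852-67200101 for Myh1 and chr11:67170777-67171026 for Myh2. Capitals mark the longest run that all 3 share.
Myh4: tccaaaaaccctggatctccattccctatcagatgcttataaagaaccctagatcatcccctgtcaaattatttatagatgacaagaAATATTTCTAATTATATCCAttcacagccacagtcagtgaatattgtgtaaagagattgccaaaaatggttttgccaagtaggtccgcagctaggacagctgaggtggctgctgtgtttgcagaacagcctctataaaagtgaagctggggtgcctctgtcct
Myh1: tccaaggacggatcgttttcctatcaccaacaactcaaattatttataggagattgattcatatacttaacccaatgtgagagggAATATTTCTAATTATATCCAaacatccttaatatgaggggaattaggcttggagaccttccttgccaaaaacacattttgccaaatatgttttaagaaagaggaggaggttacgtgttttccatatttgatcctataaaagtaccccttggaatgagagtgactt
Myh2: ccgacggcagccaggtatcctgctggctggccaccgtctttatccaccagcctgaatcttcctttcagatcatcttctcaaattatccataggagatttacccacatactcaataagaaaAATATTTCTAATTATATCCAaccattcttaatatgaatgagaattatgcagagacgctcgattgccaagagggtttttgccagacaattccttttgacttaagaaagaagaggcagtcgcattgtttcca
The shared run is 20 bases long and was in 3 of the 32851 windows of this length in the table, those of these 3 genes. The values of the 3 genes over the hearts are given below, and a link between the shared run and these values was not tested.

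Stretches of 2 further members with wide spread are shown for comparison, both from the minus strand: chr7:126463104-126463323 for Atp2a1 and chr2:164779735-164779984 for Tnnc2. Capitals mark the letters CANNTG, the E-box that myogenic factors bind.
Atp2a1: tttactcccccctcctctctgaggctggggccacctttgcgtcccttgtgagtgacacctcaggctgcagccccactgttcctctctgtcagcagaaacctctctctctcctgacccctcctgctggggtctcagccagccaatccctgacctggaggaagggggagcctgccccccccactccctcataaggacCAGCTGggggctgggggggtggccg
Tnnc2: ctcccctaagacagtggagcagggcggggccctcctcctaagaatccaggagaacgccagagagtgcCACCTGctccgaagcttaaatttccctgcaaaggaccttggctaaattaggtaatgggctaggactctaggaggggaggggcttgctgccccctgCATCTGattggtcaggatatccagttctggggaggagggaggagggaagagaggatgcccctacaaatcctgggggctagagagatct
Of the members, 7 had a window in the table, and Pvalb had a pair of them, so 8 windows were searched on both strands. CANNTG was in 5 of the 8 windows, against 66.2% of all windows. CAGCTG, a special case of CANNTG, was in those of Myh4, Atp2a1 and Mylpf, against 13.0% of all windows. A MEF2 site was matched before Myh4, Myh1 and 1 start of Pvalb, against 2.92% of all windows. A CArG box was matched before Myh4, against 1.47%. TATAAA was before Myh4 and Myh1, against 12.4%. Each match is a run of letters and not a measured binding site.

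Myh4, the type 2B heavy chain, had the widest spread of the 10. It stood at 1.03, 0.23, -0.47 and -0.23 in females 1 to 4, against 1.57, 2.23, -0.69 and -0.45 in males 1 to 4. Males 1 and 2 and female 1 were high, males 3 and 4 and females 3 and 4 were low, and the sexes overlapped. The highest and the lowest heart, both male, were 2.92 apart, which is 7.59-fold, and by this range Myh4 was number 5 of all 22180 genes.

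The other heavy chains did not share that spread. Myh1, of type 2X, stood at 0.15, -0.059, 0.0027 and -0.082 in females 1 to 4, against 0.17, 0.091, -0.032 and -0.0027 in males 1 to 4. Its range of 0.26 was close to the median range of 0.22 over all genes. Myh2, of type 2A, stood at -0.15, 0.11, -0.019 and -0.11 in females, against 0.0014, 0.44, 0.084 and -0.0014 in males. Male 2 alone was clearly above the others, and male 1 and female 1, which were high for Myh4, were not high for Myh2. The remaining chains of the cluster, Myh3 and Myh8 of developing muscle and Myh13 of eye muscles, had ranges of 0.18, 0.085 and 0.16. Myosin heavy chain genes are close in sequence, and how far their probe sets share signal is not known here.

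**Figure D1:**
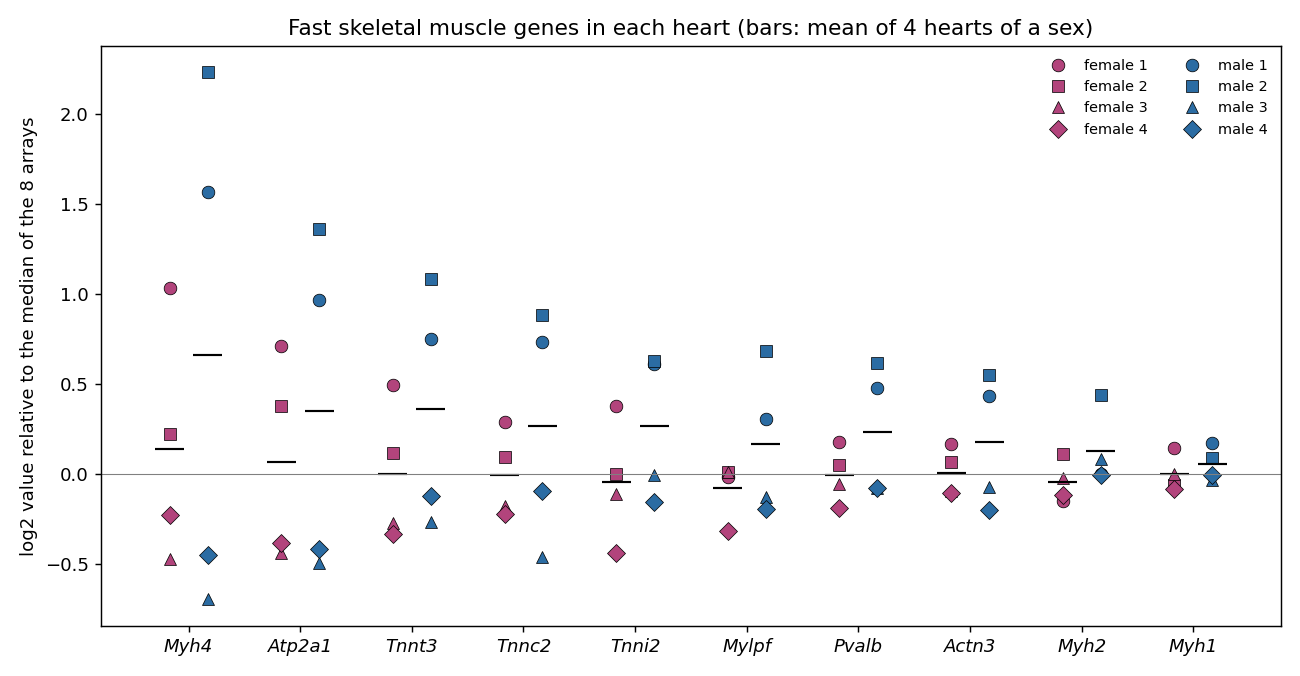
Log2 value relative to the median of the 8 arrays (vertical axis) of the 10 genes (horizontal axis, by falling range), with females left of males, 1 marker shape per replicate number and a bar at the mean of the 4 hearts of a sex. Males 1 and 2 lie above the other hearts in 8 of the 10 genes, and Myh1 spans only 0.26 where Myh4 spans 2.92.

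The light chain and the actinin also had males 1 and 2 on top. Mylpf, the fast regulatory light chain, stood at -0.013, 0.013, 0.015 and -0.31 in females 1 to 4, against 0.31, 0.68, -0.13 and -0.19 in males 1 to 4. Males 1 and 2 were high, but female 1 was level with females 2 and 3, and female 4 lay below them. Actn3, which links actin filaments in fast fibres, stood at 0.17, 0.071, -0.093 and -0.11 in females, against 0.44, 0.55, -0.071 and -0.20 in males. For Actn3 the order of the highest hearts was male 2, male 1 and female 1, as for Myh4.

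The 3 fast troponin subunits ran closely together. Tnnt3, which anchors troponin on tropomyosin, stood at 0.49, 0.12, -0.27 and -0.33 in females 1 to 4, against 0.75, 1.08, -0.27 and -0.12 in males 1 to 4. Tnni2, the inhibitory subunit, stood at 0.38, 0.0020, -0.11 and -0.44 in females, against 0.61, 0.63, -0.0020 and -0.15 in males. Tnnc2, the calcium-binding subunit, stood at 0.29, 0.094, -0.17 and -0.22 in females, against 0.74, 0.89, -0.46 and -0.094 in males. In each of them males 1 and 2 were highest and female 1 was the highest female, while the lowest heart differed: female 4 for Tnnt3 and Tnni2, male 3 for Tnnc2. The ranges were 1.42 for Tnnt3, 1.07 for Tnni2 and 1.34 for Tnnc2.

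The calcium-handling genes followed the same order of hearts. Atp2a1, the pump that returns calcium to the sarcoplasmic reticulum of fast fibres, stood at 0.71, 0.38, -0.44 and -0.38 in females 1 to 4, against 0.97, 1.36, -0.49 and -0.42 in males 1 to 4. Its hearts fell apart into males 1 and 2 with females 1 and 2 above 0, and the other 4 at -0.38 or lower. Pvalb, which speeds relaxation by binding calcium, stood at 0.18, 0.055, -0.055 and -0.19 in females, against 0.48, 0.62, -0.075 and -0.076 in males. Its range was 0.81, against 1.85 for Atp2a1.

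Over the 10 genes, male 2 was the highest heart for 9, male 1 was second for 8, and female 1 was next for 7. The exceptions on top were Myh1, with male 1 highest, and Myh2, with female 2 second. Males 1 and 2 were the 2 highest hearts for 8 of the 10, an order that 3.39% of all genes had. This order is what the genes were picked for, so the share is given as background. The mean of the 10 genes was 0.32, 0.10, -0.16 and -0.24 in females 1 to 4, against 0.60, 0.86, -0.21 and -0.17 in males 1 to 4. Without Myh4 it was 0.25, 0.087, -0.13 and -0.24 in females, against 0.50, 0.70, -0.16 and -0.14 in males, so the order of the 3 highest hearts did not rest on Myh4. In both sexes these means were positive in hearts 1 and 2 and negative in hearts 3 and 4. The labels do not say that these numbers pair the hearts.

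The genes differed in how steeply they followed the common pattern. Measured as the slope on the mean of the other members, Myh4 had 3.08 and Atp2a1 1.79, while Tnnt3 had 1.29, Tnnc2 1.07 and Tnni2 0.81. Pvalb, Actn3 and Mylpf had slopes of 0.67, 0.60 and 0.60, and Myh2 and Myh1 had 0.22 and 0.16. The 3 heavy chains thus held both the steepest and the flattest members. By range, 8 members lay in the top 1% of all genes, Myh2 at the percentile 97.8 and Myh1 at 60.4. A range of at least 1 was reached by 5 members and by 68 of all genes, or 0.307%. Mylpf, at 0.998, lay just short of it.

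**Figure D2:**
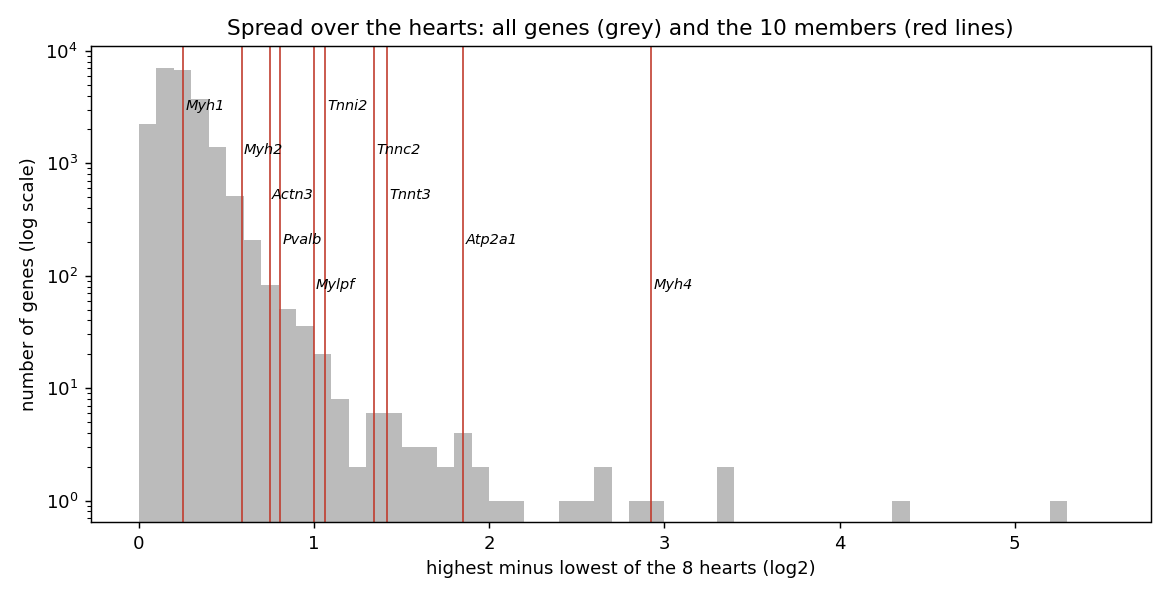
Number of genes (vertical axis, log scale) by the difference between the highest and the lowest of the 8 hearts (horizontal axis, log2), with a red line at each of the 10 genes. Most genes lie near the median of 0.22, Myh1 lies among them at 0.26, and Myh4 lies far right at 2.92.

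Between the sexes, each of the 10 genes had a lower mean in females, but 0 of the 10 passed the threshold (limma, Benjamini-Hochberg adjusted p under 0.05 over all genes), against 0.0316% of all genes in either direction and 0.018% lower in females. At an unadjusted p under 0.05 the limma count was also 0, against 6.96% of all genes in either direction and 3.32% lower in females. Females averaged lower than males in 50.4% of all genes. The sexes overlapped in every one of the 10, whereas they did not overlap in 3.74% of all genes. Most of the 10 genes share the same high hearts, so their common direction is not independent from gene to gene.

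The intervals of the sex difference were wide for most of them. Myh4 averaged 0.14 ± 0.66 in females and 0.66 ± 1.46 in males (SD, n = 4 each), a difference of -0.52 with a 95% interval of -2.00 to 0.95 (limma adjusted p = 0.94). The Myh4 difference was -0.0015 without male 2 and -0.98 without male 3. Atp2a1 averaged 0.069 ± 0.57 in females and 0.35 ± 0.95 in males (SD, n = 4 each), a difference of -0.29 with an interval of -1.30 to 0.73 (limma adjusted p = 0.959). The spread within each sex was larger than the difference for both genes. Tnnt3 averaged 0.0029 ± 0.38 in females and 0.36 ± 0.66 in males (SD, n = 4 each), a difference of -0.36 with an interval of -1.06 to 0.34. Myh2 had the smallest p of the 10, with -0.042 ± 0.12 in females and 0.13 ± 0.21 in males (SD, n = 4 each), a difference of -0.17 with an interval of -0.40 to 0.055 (limma adjusted p = 0.786). The narrowest interval was that of Myh1, from -0.20 to 0.086 around a difference of -0.055. The other differences were -0.31 for Tnni2, -0.27 for Tnnc2, -0.24 for Mylpf, -0.24 for Pvalb and -0.17 for Actn3.

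The spread within the males was wider than within the females for 9 of the 10 genes, all but Myh1, and was not tested. The median difference over the 10 genes was -0.26, against -0.00058 over all genes. Without male 2 it was -0.067. Without males 1 and 2, the 2 hearts with the highest Myh4, it was 0.11, and without these and female 1 it was 0.048. These hearts were picked by their high values. Leaving out a male above a gene's male mean raises female minus male, and leaving out a female above its female mean lowers it. These medians are therefore a description.

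**Figure D3:**
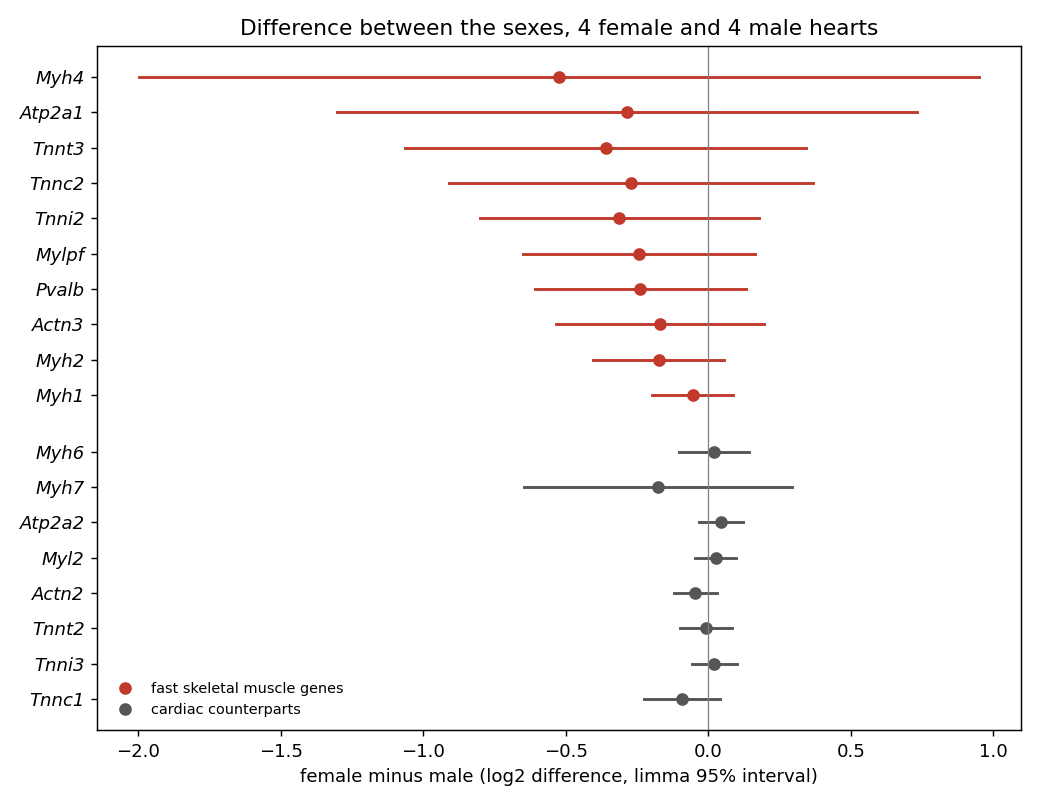
Difference between the mean of 4 female and the mean of 4 male hearts (horizontal axis, log2, with the 95% interval of limma) for the 10 fast skeletal muscle genes (red) and 8 genes of their cardiac counterparts (grey). Every interval includes 0, and the interval of Myh4 runs from -2.00 to 0.95.

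The cardiac pump, light chain, actinin and troponins varied less than their fast relatives, while the heavy chains overlapped. The fast genes were picked because they differed between these hearts, so their wider ranges follow from that choice and are a description. Ranges over the hearts were 0.14 for the pump Atp2a2, 0.096 for the light chain Myl2 and 0.14 for the actinin Actn2. The troponin genes Tnnt2, Tnni3 and Tnnc1 had ranges of 0.18, 0.096 and 0.25, and the main heavy chain of the adult mouse heart, Myh6, had 0.27. Their fast relatives Atp2a1, Mylpf, Actn3, Tnnt3, Tnni2 and Tnnc2 had ranges between 0.75 and 1.85. Among the fast heavy chains, Myh1 had a range of 0.26, close to that of Myh6, and Myh2 had 0.59. Myh7, the slow heavy chain that both heart and slow skeletal fibres use, stood at 0.15, -0.51, 0.28 and -0.40 in females 1 to 4, against 0.31, 0.34, -0.29 and -0.15 in males 1 to 4. Males 2 and 1 were thus highest for Myh7 as well, but female 3 came next and then female 1. Female means were higher for 4 of the 8 cardiac genes and lower for 4, with 0 past the limma threshold and a median sex difference of 0.0063.

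Most other genes listed for fast skeletal muscle did not have males 1 and 2 on top, though the mean of their list was highest in these hearts. The list was not one of fast fibres alone, as it held Myh3 and Myh8 of developing muscle and Myh13 of eye muscles. Of its 26 genes, 4 had males 1 and 2 as the 2 highest hearts, a larger share than the 3.39% of all genes. They were the Z-disc gene Myoz1, the AMP deaminase gene Ampd1, the calcium release channel gene Ryr1 and Sypl2, named after their values were seen. Their ranges were only 0.29, 0.26, 0.18 and 0.22. The list's mean was 0.085 and 0.072 in males 1 and 2, and at most 0.0045 in the other hearts. Its median range was 0.27, and 1 of the 26 reached a range of 1. That gene was Acta1, skeletal actin, which stood at -0.32, -0.82, -0.47 and -0.58 in females 1 to 4, against 1.12, 0.32, 0.53 and 0.43 in males 1 to 4. Acta1 was high in male 1 but lowest of the males in male 2, and it did not overlap between the sexes (difference -1.15, limma adjusted p = 0.137).

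Of the widest genes in the list after Acta1, Neb, the giant ruler protein of thin filaments, came nearest to the pattern. Neb stood at 0.10, 0.15, -0.068 and -0.071 in females 1 to 4, against 0.058, 0.34, -0.058 and -0.25 in males 1 to 4. Male 2 was highest, but male 1 was below females 1 and 2. The calcium-binding gene Casq1 was highest in female 2, at 0.20, against 0.088 in male 2. Mybpc2, a fast myosin-binding protein gene, had 0.27 in female 3 and 0.39 in male 1. Myl1, the fast essential light chain gene and chosen after its values were seen, had a range of 0.28. In the list 17 of 26 genes had lower means in females, against 50.4% of all genes. In limma 0 passed the threshold and 4 had an unadjusted p under 0.05, against 6.96% of all genes, and the median sex difference was -0.022.

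Genes of slow fibres, of the nerve contact and of muscle stem cells were also counted for males 1 and 2 on top, an order that 3.39% of all genes had. Of 8 genes of slow skeletal muscle, some of which the heart also uses, 1 had males 1 and 2 on top. That gene was the myosin-binding protein gene Mybpc1, with 0.15, -0.074, -0.063 and -0.020 in females 1 to 4, against 0.19, 0.30, 0.020 and -0.054 in males 1 to 4. The widest of the 8, the light chain gene Myl6b, with a range of 0.73, was highest in male 4. The slow troponin gene Tnnt1 was instead highest in male 3, at 0.29. Of 8 genes of the neuromuscular junction and its nerve, and of 9 genes of satellite cells and myogenic factors, 0 and 0 had that order, with median ranges of 0.19 and 0.17. In lists this short, counts of 0 are near the share of 3.39%. Pax7, which marks satellite cells, was highest in male 2 at 0.16, and Myod1 stayed between -0.13 in female 2 and 0.076 in male 3.

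Genes beside the members on their chromosomes had males 1 and 2 on top in a few cases. The nearest measured protein-coding genes on either side, in the RefSeq order of GRCm38.p6, were 15 genes outside the 10. Of these 15, 2 had males 1 and 2 on top, against 3.39% of all genes, Rabep2 beside Atp2a1 and Syt8 beside Tnni2. Their median range was 0.25 and their widest was 0.60, that of Ift27 beside Pvalb. Lsp1, which lies between Tnni2 and Tnnt3 on chromosome 7, was highest in female 4. The 10 genes lie on 5 chromosomes, with Atp2a1, Mylpf, Tnni2 and Tnnt3 on chromosome 7, Tnnc2 on 2, Pvalb on 15, Actn3 on 19 and the heavy chains on 11.

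Markers of other tissues that a heart sample can hold, and of further cell types of the heart itself, were also read. As lists they did not follow the 10 genes, except in part those of tendon and fibroblasts. Of 8 tendon and fibroblast genes, 4 had males 1 and 2 as the 2 highest hearts, against 3.39% of all genes. The list's mean was between -0.061 and -0.027 in females, against 0.28, 0.11, -0.077 and 0.031 in males 1 to 4. Thbs4, a matrix protein of tendon and muscle attachments, stood at 0.11, -0.17, 0.0082 and -0.17 in females 1 to 4, against 0.72, 0.38, -0.035 and -0.0082 in males 1 to 4. Col1a1, the main fibrillar collagen, was highest in male 1, at 0.63, with 0.14 in male 2. The part of these genes in the values of the 10 was not tested.

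The atrial list differed strongly between hearts, but with another order of the hearts. Its mean was -1.01, 0.48, -0.16 and 0.36 in females 1 to 4, against -0.64, 0.22, -0.84 and 0.17 in males 1 to 4. Female 1, male 1 and male 3 were low, and of these male 3 was low for the fast skeletal genes while female 1 and male 1 were high. Bmp10, a growth factor gene of atrial muscle, stood at -3.46 in female 1 and -3.35 in male 1, and at 0.39 in male 2. The liver gene Alb stood at 1.76 and 2.69 in females 1 and 2, against 0.032 and -0.14 in males 1 and 2. The other liver genes named, Apoa1, Serpina1a and Fgb, stood at 0.41, 0.31 and 0.30 in female 2 but at -0.026, 0.0048 and 0.077 in female 1. The adipocyte list had means of -0.15, 0.19, 0.14 and 0.32 in females 1 to 4, against -0.18, -0.18, 0.14 and -0.13 in males 1 to 4, so it was low in the 3 hearts with the highest Myh4 and also in male 4. Of 9 adipocyte genes, 0 had males 1 and 2 on top, which is near the share of 3.39% of all genes. Lists of oesophageal and skin epithelium, lung epithelium, thymus and lymph node had means between -0.062 and 0.049 in all hearts. Smooth muscle genes were highest as a list in male 4, at 0.16, and ventricular muscle genes in male 3, at 0.076. Nppb, a natriuretic peptide gene of ventricular muscle, did have males 1 and 2 on top, at 0.26 and 0.15. The part of the adipocyte and atrial genes in the values of the 10 was not tested, and centred values cannot show which markers are absent.

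**Figure D4:**
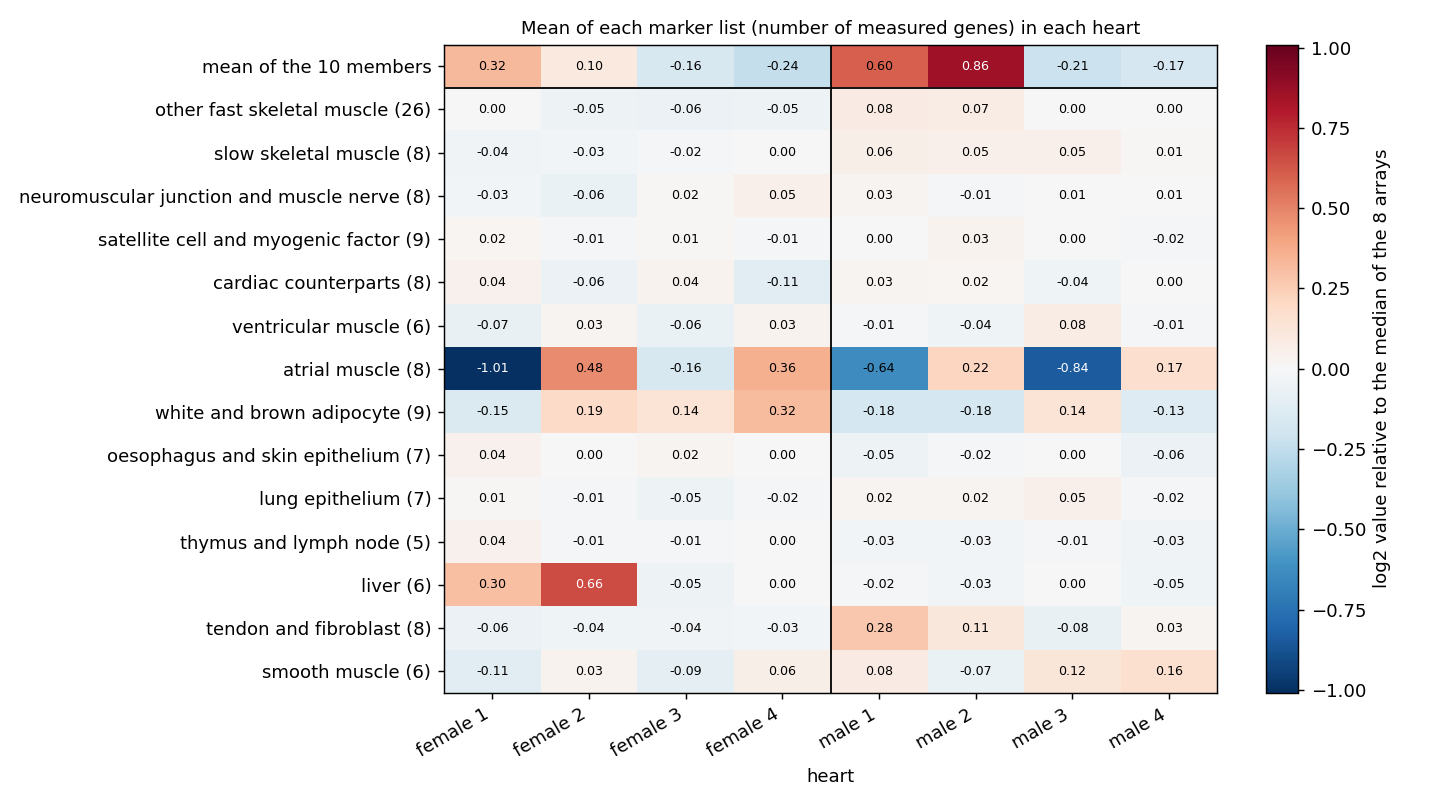
Mean log2 value relative to the median of the 8 arrays (colour and number) of the 10 genes and of each marker list (rows, with the number of measured genes) in each heart (columns, females left of males). The 10 genes reach 0.86 in male 2 and 0.60 in male 1, while the other skeletal muscle lists stay within 0.085 of 0 and the atrial list is lowest in female 1.

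Genes outside the 10 whose values lay closest to their mean were then named, and of the marker lists only the tendon and fibroblast gene Thbs4 was among them. Closeness was measured as the root-mean-square difference over the 8 hearts after each was centred on its median, and a gene with the same value in every heart would have 0.425. Among nameable genes outside the 10 the smallest differences were those of Cilp (0.217), a cartilage matrix protein gene, Thbs4 (0.245), the fibrillin-binding gene Ltbp2 (0.272), the kallikrein gene Klk1b24 (0.273) and the lamin-processing protease gene Zmpste24 (0.279). They were followed by Postn (0.284), a matrix protein gene of activated fibroblasts, Itgbl1 (0.285), Ctla2b (0.286), the collagen-crosslinking enzyme gene Lox (0.292), Angptl7 (0.294), the proteoglycan gene Aspn (0.294) and Ccn5 (0.296).

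Of these 12 genes, Zmpste24 had the same order of the 3 highest hearts as Myh4, while others differed from it. Cilp stood at -0.0095, -0.15, -0.19 and -0.17 in females 1 to 4, against 0.71, 0.62, 0.0095 and 0.077 in males 1 to 4. Postn stood at -0.16, 0.010, -0.010 and -0.32 in females, against 1.10, 0.81, -0.38 and 0.13 in males. Female 1, the next highest heart for 7 of the 10 fast genes, was also next for Zmpste24, at 0.16, and for Thbs4, at 0.11, and stood at 0.056 in Klk1b24 and 0.055 in Ctla2b. It was below 0 in the other genes of the 12. Male 1 lay above male 2 in 9 of the 12 genes but in 1 of the 10. Males 1 and 2 were the highest hearts in 11 of the 12, all but Ctla2b, which follows from how they were chosen. Male means were higher in all 12, against 50.4% of all genes, which that choice also favours. Cilp, Itgbl1, Lox, Aspn and Ccn5 did not overlap between the sexes, against 3.74% of all genes, while each of the 10 fast genes overlapped. Choosing genes close to a profile high in 2 males favours this as well, so the share is given as background. With Pearson's r as the measure, 0 of the 12 were chosen again, and the genes on top were such as Hnrnpul1, with a range of only 0.080.

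**Figure D5:**
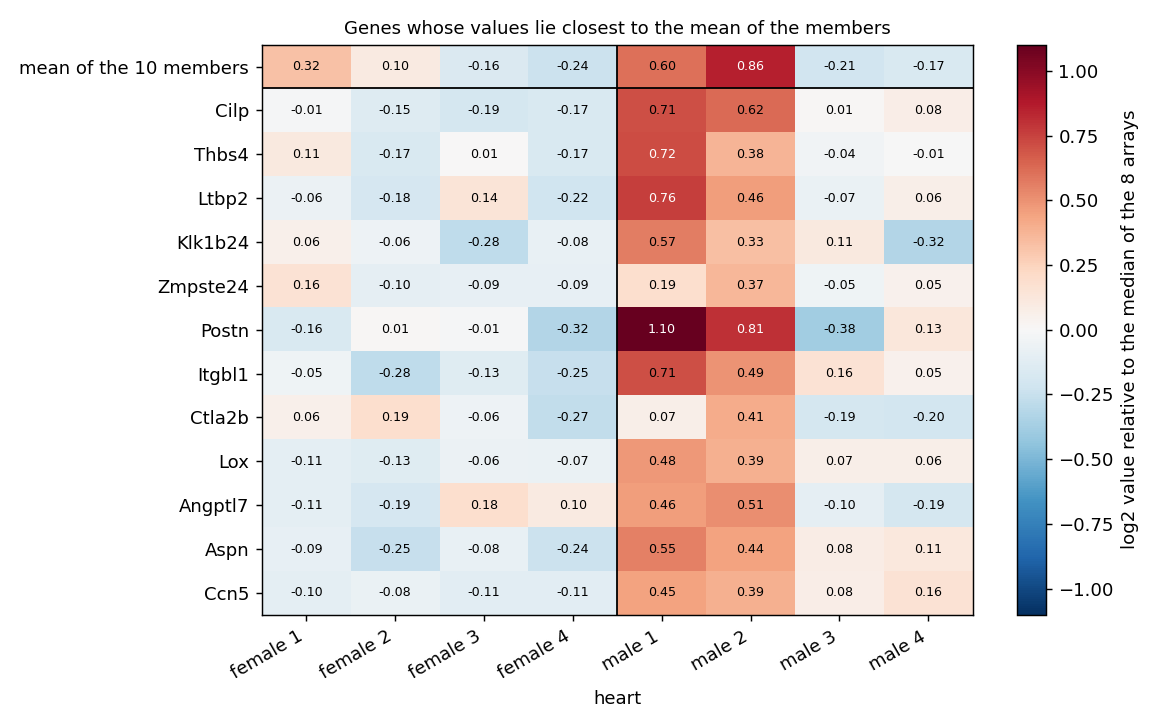
Log2 value relative to the median of the 8 arrays (colour and number) of the mean of the 10 genes and of the 12 genes closest to it (rows) in each heart (columns, females left of males). Female 1 is at 0.32 in the mean of the 10 but at -0.0095 in Cilp and -0.16 in Postn.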

How the data were processed

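RNA of 8 hearts was measured on 8 arrays. The deposited log2 values are per probe set and centred so that the median of every one of the 34351 probe sets is 0 (tolerance 1e-06). The sources used here do not give the authors' background correction, normalization, software or log base, and base 2 was assumed. Biotin-labelled RNA was prepared by the Affymetrix protocol per the labels' protocols. Platform annotation supplied with the data gave 1 symbol to 23521 probe sets, several to 1814 and none here to 9016. Probe sets were averaged per gene, giving 22180 genes. All 10 members matched the RefSeq gene table by gene ID.

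Females were compared with males in a linear model with no term but sex (lmFit, then eBayes, limma 3.58.1, R 4.3.3), and p-values were adjusted by Benjamini-Hochberg over the 22180 genes, with a threshold of 0.05. The fit was tested on simulated data with known changes. The number of arrays limits the precision. The labels call the samples biological replicates. Members and lists were chosen with earlier results of these data known. Genes outside the naming rule, such as Myl1, Myoz1, Ampd1, Ryr1, Sypl2 and the chromosome neighbours, were named after their values were seen. The rule named all members and cardiac counterparts, the 12 most similar genes (without predicted, small RNA, olfactory and vomeronasal genes) and up to 4 genes per list by range. Sequences are from RefSeq, GRCm38.p6. The bases of Atp2a1 inside its annotated extent were left out of print.

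Alternatives were quantile normalization, centring of arrays, single probe sets, trend and robust eBayes, weights per array, a block for the replicate number, each heart left out and a threshold of 0.1. Leaving out the 2 or 3 hearts with the highest Myh4 was added after seeing the data. A filter on dim probe sets was not run, since centred values hold no brightness.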

Additional observations from a re-analysis of the deposited data

Results flagged for a closer look

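Within the 4 hearts of a sex, a value far from the other 3 was looked for in 81 named genes, or 162 groups, by Dixon's ratio at its 95% critical value for 4 hearts. It was exceeded in 9 groups, or 5.56%, and chance alone exceeds it in about 5%. Since the members were chosen for their spread and the list genes for their range, the values are given as a description. Among the members this happened once, for Mylpf, which stood at -0.31 in female 4 and between -0.013 and 0.015 in the other females. Of the genes most like the members, Zmpste24 stood at 0.16 in female 1 and between -0.096 and -0.091 in the other females.

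Among the marker genes, Kcne1 stood at 0.45 in female 4, with the other females between -0.011 and 0.031, and Apoa1 at 0.41 in female 2, with the others between -0.052 and -0.013. Scx stood at -0.24 in female 2, with the others between -0.047 and -0.030, and Myh11 at -0.10 in female 1, with the others between -0.019 and -0.0060. In males, Scgb1a1 stood at 0.30 in male 1, with the others between -0.016 and 0.00096. Ptcra stood at -0.053 in male 3, with the others between 0.012 and 0.019, and Serpina1a at 0.18 in male 3, with the others between -0.11 and -0.061.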

How the results depend on the processing

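Over 16 alternative fits, 0 of the 10 members passed the adjusted threshold (limma, smallest adjusted p = 0.543), and 0 passed at a threshold of 0.1. Of 160 member differences in these fits, 143 were lower in females. Without male 2 alone, Atp2a1 had 0.049, and leaving out single hearts gave median differences over the members between -0.38 and -0.067 and between 4 and 7 genes called (4 without male 3). Without the 2 hearts with the highest Myh4 the median was 0.11, and the differences were 0.71 for Myh4, 0.020 for Myh1, 0.52 for Atp2a1, -0.083 for Myh2, 0.084 for Mylpf, 0.15 for Actn3, 0.20 for Tnnt3, 0.036 for Tnni2, 0.27 for Tnnc2 and 0.074 for Pvalb. Without the 3 highest the median was 0.048, and they were 0.41 for Myh4, 0.31 for Atp2a1, 0.064 for Mylpf, 0.093 for Actn3, 0.032 for Tnnt3, 0.18 for Tnnc2, 0.013 for Pvalb, -0.029 for Myh1, -0.049 for Myh2 and -0.11 for Tnni2. Fewer hearts were then left, 6 and 5. Leaving single hearts out gave Atp2a1 values between -0.57 and 0.049. The count of genes called over all genes was 7, against 3 with quantile normalization and 4 without the 2 hearts with the highest Myh4, and the cause was not tested. With Pearson's r, 0 of the 12 most similar genes were chosen again, and with the median profile 9 were. The labels do not say that the replicate numbers pair the hearts. Between females and males of the same number, correlations of deviations over genes were 0.137, 0.0972, 0.00618 and 0.0906. Between other numbers they lay between -0.130 and 0.0955. A block for the replicate number gave each of the 10 members a smaller SE of the sex difference. The SE was 0.17 with the block against 0.45 without it for Atp2a1, and 0.12 against 0.18 for Mylpf. An effect shared by hearts of the same number was not tested. With the replicate block the median difference was -0.26, 8 genes were called and 0 members. At an unadjusted limma p under 0.05, 3 members passed with the block (Tnni2, Myh2 and Pvalb), against 7.64% of all genes, where 0 passed without it.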
